A study of Mus musculus with 16 samples.

Results

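Cholesterol leaves a macrophage through membrane transporters that hand it to lipid-poor or lipidated lipoprotein particles, and what stays behind is esterified and kept in droplets. Oxysterols made from surplus cholesterol bind the liver X receptors (LXR), nuclear receptors that pair with RXR on DNA and switch on genes of this export route. Alveolar macrophages, the cells that make up most of a normal lung lavage, take up and clear surfactant and so handle much lipid. The genes described here are Abca1, Abcg1, Apoe, Apoc2, Pltp, Soat1, Nceh1, Mylip, Cyp27a1 and Ch25h. They were chosen by name as genes of cholesterol efflux, cholesterol esters and oxysterols and as LXR targets, and they are 10 of the 54532 genes in the count table.

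RNA was sequenced from cells washed out of the airways (bronchoalveolar lavage) of mice aged 8 to 10 weeks, labelled C57BL/6 in the series and C56BL/6J on each sample. The mice had received saline or 4 U per kg of bleomycin, a DNA-damaging drug used to model lung fibrosis, by the oropharyngeal route, and cells were taken at 14 days. There were 4 groups of 4 libraries: saline males (C70 to C73), saline females (C74 to C77), bleomycin males (C33, C65, C66 and C67) and bleomycin females (C49, C50, C68 and C69). The codes C33, C49 and C50 stand apart from the run C65 to C77, and the labels name no batch. Results without these libraries are therefore also given. No group carried an engineered allele in the labels, the cells were a mixture rather than a sorted type, and whether a library came from 1 mouse or a pool is not stated, so p-values measure the spread between these libraries.

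The sequence upstream of Abca1 is shown because the 2 sexes differed in this gene under saline and because it holds a well known LXR element. It is the 250 bases before the start of Abca1 in RefSeq's GRCm38.p6 annotation, chr4:53159896-53160145, minus strand, written 5′ to 3′ in the direction of the gene. The capitals mark 2 matches: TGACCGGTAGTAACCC, which lies 67 to 52 bases before the start, and TATAAA, 29 to 24 bases before it.
Abca1 upstream: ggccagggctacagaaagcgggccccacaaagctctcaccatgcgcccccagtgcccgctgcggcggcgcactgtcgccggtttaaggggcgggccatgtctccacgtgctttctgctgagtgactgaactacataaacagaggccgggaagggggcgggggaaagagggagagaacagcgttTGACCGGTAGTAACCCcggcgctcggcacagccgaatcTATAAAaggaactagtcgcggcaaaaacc
The first match is a DR4 element, a direct repeat of the nuclear receptor half-site, read on the opposite strand. The motif searched was NGGTNANNNNNGGTCA on both strands, a spelling chosen so as to include the Abca1 element, so its presence there is not a result. It stood in 58 of 32851 upstream windows of the same length (0.177%) and, of the 9 genes with a window in that table, in Abca1 only. Abcg1 was the gene without a window. TATAAA was found in the windows of Abca1, Apoe (at an alternative start), Ch25h and Mylip, 4 of 9 genes or 4 of 11 windows, since Apoe has several, against 12.4% of all windows. The E-box CACGTG was found upstream of Abca1 (147 to 142 bases before the start) and Nceh1, against 6.02% of all windows, and the half-site AGGTCA upstream of Apoc2, against 14.0%. The sterol element TCACNCCAC was in none of these windows, against 1.05% of all. No match says only that these letters are not in this window.

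Gene counts totalled 16385784 to 24567609 per library, and the level of Xist or Ddx3y matched the labelled sex in 16 of 16 libraries. Levels are given as CPM, a gene's counts scaled to a common library total after adjusting each library for composition with TMM factors, which ran from 1.053 to 1.098 under saline and from 0.8633 to 1.027 under bleomycin. Changes are log2 changes from 1 edgeR model over all 16 libraries with an approximate standard error (SE), and a gene passed at a Benjamini-Hochberg adjusted p below 0.05 over the 15257 genes tested. Of the 10 genes, 9 passed the filter on low counts, with at least 113 counts in each library, and Apoc2 did not. Markers of resident alveolar macrophages were abundant in every library, with a summed level of 12366 to 27538 CPM. Markers of monocytes and monocyte-derived macrophages summed to 301 to 392 CPM under saline and 1840 to 3164 CPM under bleomycin, and all 9 of them rose. Markers of dendritic cells (4 of 4 rose, summed level 8.63 to 22.5 CPM under saline and 119 to 293 CPM under bleomycin) and B cells (4 of 4 rose, 0.242 to 0.672 and 21.6 to 161 CPM) were higher too. Neutrophil markers summed to 49.5 to 67.8 and 112 to 186 CPM, with 3 of 4 tested rising and 1 falling (-0.50). Of the T cell markers 5 of 6 rose and 1 fell (-1.10), with a median log2 change of 7.27 averaged over the sexes. Their sums were 239 to 273 and 232 to 414 CPM. Of the epithelial markers 4 of 6 rose and 1 fell (-2.66), with a median of 2.64. Their sums were 189.99 to 255 and 152 to 235 CPM. A sum follows its most abundant markers and can stay level while most markers rise. The part of these cell types in the results below was not tested. In bulk RNA, more or fewer cells of a type and more or less RNA per cell cannot be told apart.

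Bleomycin raised Apoe, Cyp27a1, Ch25h, Soat1, Abca1 and Pltp and lowered Abcg1, Nceh1 and Mylip in the comparison averaged over the sexes. That is 6 of 9 tested genes up and 3 of 9 down, where 34.7% of all tested genes rose and 28.8% fell. In males 5 rose, 3 fell and Abca1 did not pass, against 31.5% of all genes rising and 24.9% falling. In females 6 rose and 3 fell, against 26.7% and 17.2%. The values of bleomycin and saline libraries did not overlap for 7 of 9 genes in males (54.4% of all genes) and for 8 of 9 in females (39.1%). Passing was common, with 8614 of 15257 genes called in males and 6699 in females. The median log2 change of the 9 genes was 0.54, beside 0.01 over all genes tested.

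**Figure D1:**
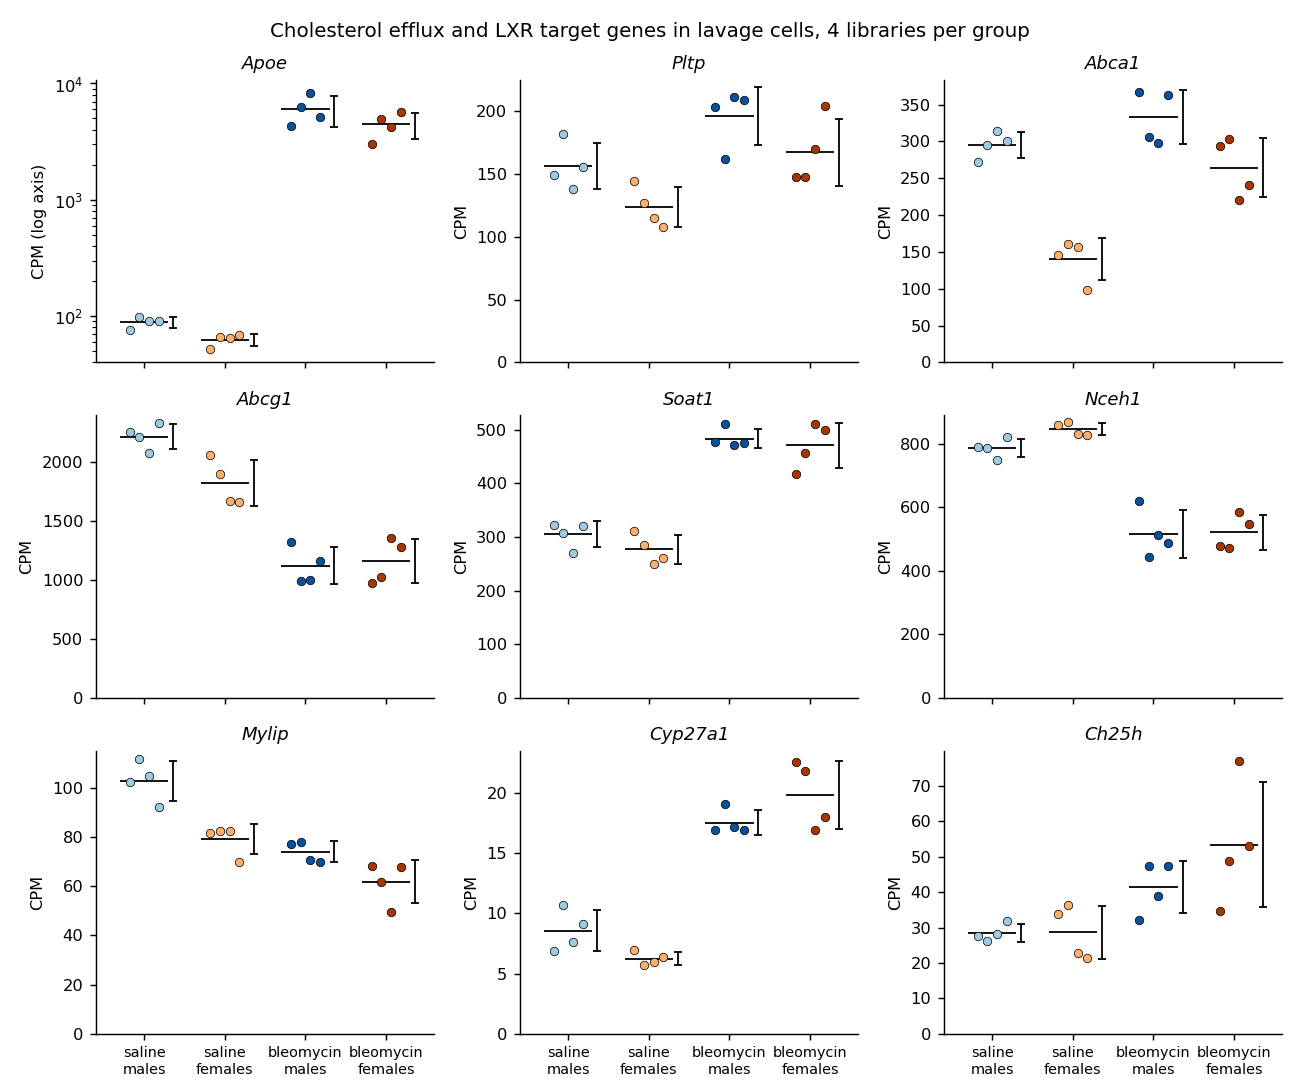
CPM of the 9 tested genes (Apoe on a log axis, the others on linear axes from 0) in each library, with the group mean as a horizontal line and ± SD (n = 4) as a bar. Apoe libraries lie at 51.5 to 98.3 CPM under saline and at 3002 to 8354 CPM under bleomycin, Abcg1 and Nceh1 lie lower under bleomycin, and Abca1 is lowest in the 4 saline female libraries.

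Apoe encodes apolipoprotein E, which macrophages secrete and which accepts exported cholesterol (GRCm38 chr7:19696109-19699188, minus strand). It stood at 75.3, 98.3, 90.8 and 90.4 CPM in the saline male libraries C70 to C73 and at 51.5, 66.1, 64.4 and 68.5 CPM in the saline female libraries C74 to C77. In bleomycin males it was 4303 (C33), 6307 (C65), 8354 (C66) and 5134 CPM (C67). In bleomycin females it was 3002 (C49), 4962 (C50), 4246 (C68) and 5681 CPM (C69). The lowest bleomycin library was far above the highest saline library, and the bleomycin libraries also spread more widely around their mean. The log2 rise was 6.09 (SE 0.24, edgeR adjusted p = 7.6e-13) in males and 6.16 (SE 0.24, adjusted p = 7.69e-13) in females, a 67.9-fold higher mean CPM in males. The difference between the 2 rises was -0.07 (SE 0.27, adjusted p = 0.951), so any dependence on sex was within the error. Monocyte-derived markers rose in the same libraries, and their part in the rise of Apoe was not tested.

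Apoc2, an activator of lipoprotein lipase that lies beside Apoe in the same gene cluster (chr7:19671579-19677941, minus strand), was almost absent. It had 0 counts in all 8 saline libraries, 8 counts over the bleomycin males (0, 1, 3 and 4 in C33, C65, C66 and C67) and 2 counts over the bleomycin females, all in C49. These counts are too few for a test or a fold. Of its 813 exon bases, 646 (79.5%) are also exon of the readthrough gene Gm44805 on the same strand, which had 0 counts. How reads that fit both genes were counted is not given in the sources used here.

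Pltp encodes phospholipid transfer protein, which moves phospholipid between lipoproteins (chr2:164839518-164857711, minus strand). It stood at 149, 182, 138 and 156 CPM in saline males and at 204 (C33), 162 (C65), 211 (C66) and 209 CPM (C67) in bleomycin males, so that C65 lay within the saline range. In females it was 144, 127, 115 and 108 CPM under saline and 148, 148, 169.7 and 204 CPM under bleomycin, without overlap. The log2 rise was 0.33 in males (SE 0.12, edgeR adjusted p = 0.0284) and 0.44 in females (SE 0.12, adjusted p = 0.00669). The rise is small beside the choice of scaling: with library totals alone it was 0.10 (adjusted p = 0.418) in males and 0.24 (adjusted p = 0.0737) in females. The male call was also lost without C33, C66, C67, C70, C72 or C73 (adjusted p from 0.0525 to 0.0914). Of its 2562 exon bases, 495 (19.3%) overlap Ctsa, a lysosomal protease gene on the opposite strand that rose by 0.60 (SE 0.062, adjusted p = 1.39e-07) averaged over the sexes. Whether the counting used strand is not given in the sources used here, and the part of Ctsa reads in the Pltp counts was not tested.

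**Figure D2:**
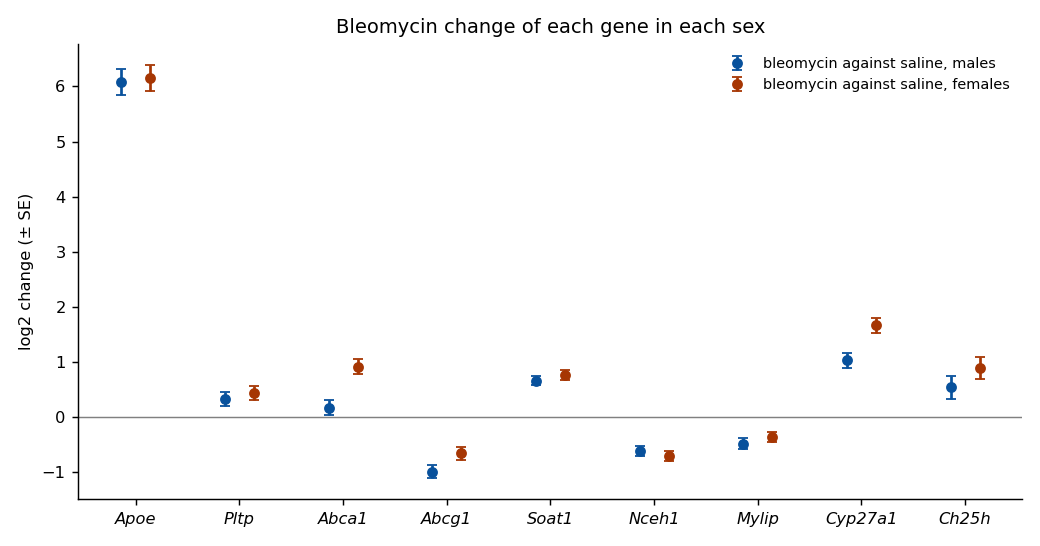
Log2 change between bleomycin and saline for each of the 9 tested genes in males and in females, with bars of ± SE. Apoe lies near 6 in both sexes, Abcg1, Nceh1 and Mylip lie below 0 in both, and Abca1 is at 0.18 in males and 0.91 in females.

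Abcg1 fell in both sexes, and Abca1 rose in females. Abcg1, which exports cholesterol to mature HDL particles (chr17:31057698-31115777, plus strand), stood at 2252, 2209.7, 2076 and 2327 CPM in saline males and 2060.3, 1898, 1669 and 1660.5 CPM in saline females. Under bleomycin it was 1323 (C33), 989 (C65), 1003 (C66) and 1163 CPM (C67) in males and 976 (C49), 1029.5 (C50), 1355 (C68) and 1276 CPM (C69) in females. All 8 bleomycin libraries lay below all 8 saline libraries. Abcg1 fell by 0.99 on the log2 scale in males (SE 0.12, edgeR adjusted p = 1.63e-06) and by 0.65 in females (SE 0.12, adjusted p = 0.000181). The difference between the sexes in this fall was -0.33 (SE 0.17, adjusted p = 0.643) and did not pass. The alveolar macrophage markers fell with it, 9 of 12 lower and 1 higher, and their part in the fall was not tested.

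Abca1, which loads cholesterol and phospholipid onto lipid-poor apolipoproteins (chr4:53030787-53159895, minus strand), stood at 272 (C70), 295 (C71), 314 (C72) and 300.0 CPM (C73) in saline males. In saline females it was 146 (C74), 161 (C75), 156 (C76) and 98.8 CPM (C77), the 4 lowest values of the 16 libraries. In bleomycin males it was 367 (C33), 306 (C65), 298 (C66) and 363 CPM (C67), which overlaps the saline males. In bleomycin females it was 294 (C49), 303 (C50), 221 (C68) and 240.4 CPM (C69), above all saline females. The log2 change was 0.18 in males (SE 0.13, edgeR adjusted p = 0.273; -0.05 with library totals alone) and 0.91 in females (SE 0.14, adjusted p = 2.07e-05). The difference between these changes was -0.74 (SE 0.19, unadjusted p = 0.00112, adjusted p = 0.479 in edgeR), which did not pass over all genes. Averaged over the sexes Abca1 rose by 0.54 (SE 0.095, adjusted p = 7.19e-05). The authors' deposited table of both sexes together gave 0.44 with an adjusted p of 0.0823. Without C49 and C50, left out for their codes and also the 2 higher bleomycin females, the female rise was 0.65 (edgeR adjusted p = 0.0012).

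Abca1 was the gene among the 9 that passed between the sexes under saline. It was higher in males by 1.07 on the log2 scale (SE 0.14, edgeR adjusted p = 0.000552), a 2.10-fold higher mean CPM, and the lowest male library, 272 CPM, was above the highest female library, 161 CPM. Of 15257 genes tested, 22 (0.144%) were higher in males and 19 (0.125%) lower. Of these 41 genes, 12 lie on X or Y and 29 do not, and Abca1 had the 2nd lowest p of the 29. The authors' deposited table for saline males against saline females gave 1.06 with an adjusted p of 2.44e-17. Across the other settings tried the difference ran from 0.94 to 1.14, with a highest adjusted p of 0.00295. The alveolar macrophage markers summed to 18618 to 20617 CPM in saline males and 24396 to 27538 CPM in saline females. In edgeR 0 of 12 passed and their median log2 difference was -0.11, so the sums do not describe every marker. The part of these markers in the Abca1 difference was not tested.

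Compared per gene length, as FPKM (counts divided by gene length and by a library constant), Abcg1 exceeded Abca1 in every library, and the gap narrowed under bleomycin. Abcg1 was 16.9 to 21.1 times Abca1 in saline males and 27.2 to 42.8 times in saline females. It was 8.16 to 9.19 times Abca1 in bleomycin males. In bleomycin females it was 8.47 times (C49), 8.66 times (C50), 15.7 times (C68) and 13.5 times (C69), so that 2 of these libraries lay within the range of the bleomycin males and 2 lay between them and the saline males. The mean log2 ratio of Abca1 to Abcg1 rose from -4.25 ± 0.134 to -3.09 ± 0.0792 in males (SD, n = 4, exact two-sided permutation p = 0.0286, the smallest that 70 arrangements allow, adjusted p = 0.0457 over 8 ratio tests). In females it rose from -5.06 ± 0.287 to -3.48 ± 0.449 (SD, n = 4) with the same exact p values. Under saline the ratio was higher in males by 0.80, again with these p values. The p of the female rise was fixed in advance, since Abca1 rose and Abcg1 fell there, each without overlap. It adds no separate evidence. Under bleomycin the difference between the sexes was 0.39 (exact permutation p = 0.2, adjusted p = 0.229). C49 and C50 also had the lowest summed alveolar macrophage markers of the bleomycin females, 12366 and 12782 CPM against 20286 and 25448 CPM in C68 and C69. The part of these markers in the split was not tested.

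**Figure D3:**
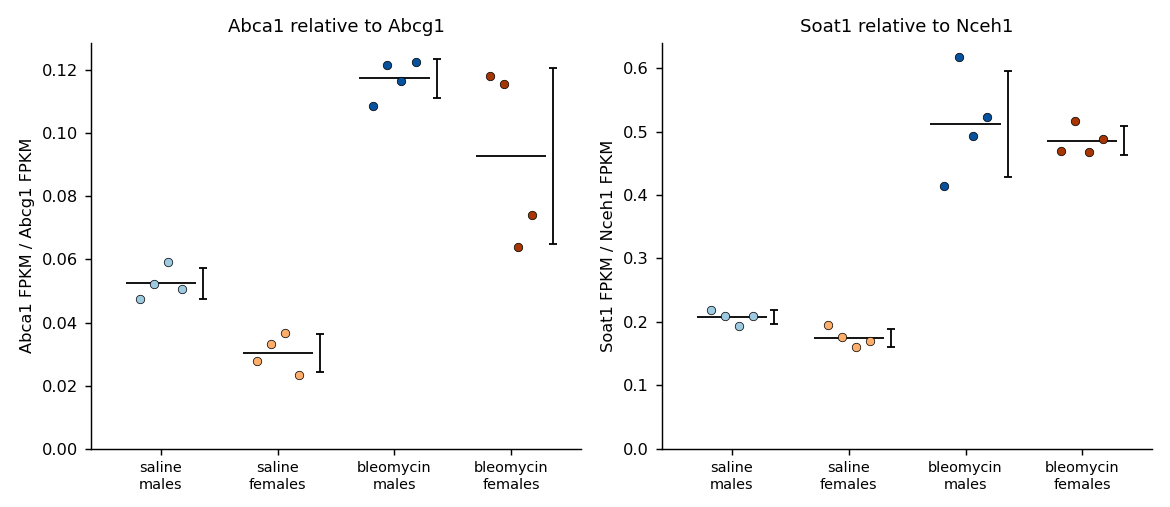
Ratio of Abca1 to Abcg1 (left) and of Soat1 to Nceh1 (right) in FPKM for each library, on linear axes from 0, with the group mean as a line and ± SD (n = 4) as a bar. Both ratios are higher under bleomycin in both sexes, and the bleomycin females split into 2 pairs for Abca1 to Abcg1.

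Soat1, which makes cholesterol esters, and Nceh1, which cleaves them, moved in opposite directions. The lipase Lipe, in the list of other ester and droplet genes below, rose, so these changes do not speak for ester cleavage as a whole. Soat1, which esterifies cholesterol for storage (chr1:156424525-156474331, minus strand), stood at 323, 307, 270.0 and 321 CPM in saline males and 311, 285, 249.7 and 262 CPM in saline females. Under bleomycin it was 478, 511, 472 and 475 CPM in males (C33, C65, C66, C67) and 418, 456, 511 and 499 CPM in females (C49, C50, C68, C69). Every bleomycin library lay above every saline library. The log2 rise was 0.67 in males (SE 0.088, edgeR adjusted p = 4.6e-06) and 0.77 in females (SE 0.088, adjusted p = 9.37e-07).

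Nceh1, an ester hydrolase that frees cholesterol in macrophages (chr3:27182965-27284608, plus strand), stood at 791, 786, 750.1 and 821 CPM in saline males and 859, 868, 832 and 829 CPM in saline females. Under bleomycin it was 619, 444, 514 and 487 CPM in males and 477, 473, 587 and 548 CPM in females, all below the saline libraries. It fell by 0.61 on the log2 scale in males (SE 0.096, edgeR adjusted p = 3.49e-05) and by 0.70 in females (SE 0.096, adjusted p = 8.35e-06). In FPKM, Nceh1 was 4.57 to 6.21 times Soat1 under saline and 1.62 to 2.41 times Soat1 under bleomycin. The mean log2 ratio of Soat1 to Nceh1 rose from -2.26 ± 0.0751 to -0.98 ± 0.237 in males and from -2.51 ± 0.115 to -1.04 ± 0.0671 in females (SD, n = 4, exact permutation p = 0.0286 and adjusted p = 0.0457 for each). Both genes had already separated the treatments without overlap and in opposite directions. The p of these rises was therefore fixed in advance and adds no separate evidence. Between the sexes the ratio differed by 0.25 under saline (exact permutation p = 0.0571, adjusted p = 0.0762) and by 0.06 under bleomycin (p = 0.629).

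Mylip encodes an E3 ligase, also called IDOL, that marks lipoprotein receptors for degradation and is an LXR target (chr13:45389742-45412022, plus strand). It stood at 92.2 to 112 CPM in saline males and 69.8 to 78.1 CPM in bleomycin males, and at 69.98 to 82.6 CPM in saline females and 49.6 to 68.4 CPM in bleomycin females. It fell by 0.47 on the log2 scale in males (SE 0.095, edgeR adjusted p = 0.000392) and by 0.36 in females (SE 0.096, adjusted p = 0.00518).

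Both oxysterol-making enzymes rose. Cyp27a1, the mitochondrial sterol 27-hydroxylase (chr1:74713574-74737892, plus strand), stood at 6.87 (C70), 10.7 (C71), 7.59 (C72) and 9.15 CPM (C73) in saline males and 5.69 to 6.94 CPM in saline females. Under bleomycin it was 16.9 to 19.1 CPM in males, and in females 22.6 (C49), 21.9 (C50), 16.9 (C68) and 17.98 CPM (C69). No bleomycin library overlapped a saline library, and C49 and C50 were the 2 highest of all. The log2 rise was 1.03 in males (SE 0.14, edgeR adjusted p = 4.63e-06) and 1.67 in females (SE 0.14, adjusted p = 1.61e-08). The difference between the sexes in the rise was -0.64 (SE 0.19, unadjusted p = 0.00401, adjusted p = 0.548) and did not pass, and without C49 and C50 it was -0.41 (adjusted p = 0.539).

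Ch25h makes 25-hydroxycholesterol and is induced by interferon in macrophages (chr19:34473786-34475135, minus strand). It stood at 26.1 to 31.9 CPM in saline males and at 32.0 (C33), 47.3 (C65), 38.9 (C66) and 47.3 CPM (C67) in bleomycin males. In females it was 33.8, 36.4, 22.8 and 21.5 CPM under saline and 34.6 (C49), 48.9 (C50), 77.02 (C68) and 53.2 CPM (C69) under bleomycin, with C49 inside the saline range. The log2 rise was 0.54 in males (SE 0.21, edgeR adjusted p = 0.0327) and 0.90 in females (SE 0.21, adjusted p = 0.00158). The call in males did not hold under every setting: with library totals alone the rise was 0.31 (adjusted p = 0.169), and it also failed without C65, C67, C70, C71 or C72 (adjusted p from 0.0634 to 0.0922). In GENCODE M21, whose model of Ch25h differs in its coordinates from the one counted, 159 of 1387 exon bases (11.5%) overlap Gm26902, a non-coding RNA on the opposite strand that changed by -0.23 (SE 0.13, adjusted p = 0.115) averaged over the sexes.

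Between the sexes, 6 of the 9 genes leaned higher in saline males with an unadjusted p below 0.05, beside 1459 of 15257 genes, but Abca1 was the call over all genes. Mylip was higher by 0.38 (SE 0.095, edgeR adjusted p = 0.119), Apoe by 0.50 (SE 0.19, adjusted p = 0.42), Cyp27a1 by 0.46 (SE 0.14, adjusted p = 0.272), Pltp by 0.34 (SE 0.12, adjusted p = 0.366) and Abcg1 by 0.28 (SE 0.12, adjusted p = 0.463). Nceh1 differed by -0.11 and Ch25h by -0.01. The saline sexes did not overlap for 5 of 9 genes (Abca1, Abcg1, Apoe, Mylip and Nceh1), against 13.2% of all genes. A fit on the 8 saline libraries alone called 5 of the 9, but over all genes it called 765, where the fit on 16 libraries called 41. Besides Abca1 the 5 were Apoe (0.49, adjusted p = 0.0113), Mylip (0.37, adjusted p = 0.0127), Abcg1 (0.27, adjusted p = 0.045) and Pltp (0.33, adjusted p = 0.05). In the authors' deposited table for the same libraries, Apoe (0.49, adjusted p = 7.52e-05), Mylip (0.36, adjusted p = 0.000212), Abcg1 (0.27, adjusted p = 0.00678) and Pltp (0.33, adjusted p = 0.0138) were listed with positive values. Mylip also passed in DESeq2 on all 16 libraries (adjusted p = 0.0192), and the cause of these differences between fits was not tested.

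Under bleomycin none of the 9 genes passed between the sexes in edgeR, DESeq2 or limma voom. In edgeR 3 of the 9 had an unadjusted p below 0.05, beside 605 of 15257 genes. Each was higher in males: Mylip by 0.26 (SE 0.096), Abca1 by 0.33 (SE 0.13) and Apoe by 0.43 (SE 0.19). The adjusted p of each was 0.995 in edgeR. Without C49 and C50 none of the 9 passed either. Abca1 came closest there, higher in males by 0.56 (edgeR adjusted p = 0.0682), and without C33 as well by 0.51 (adjusted p = 0.0596). The sexes did not overlap for Mylip alone, 1 of 9, against 1.29% of all genes, and 0.059% of all genes were called. For the interaction of bleomycin with sex none of the 9 passed in any of these tools, and 0.00655% of all genes were called in edgeR. In edgeR 2 of 9 (Abca1 and Cyp27a1) had an unadjusted p below 0.05, beside 1202 of 15257 genes. Without C33, C49 and C50 the interaction of Abcg1 was -0.56 (edgeR adjusted p = 0.0538), the closest of the 9 to passing.

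**Figure D4:**
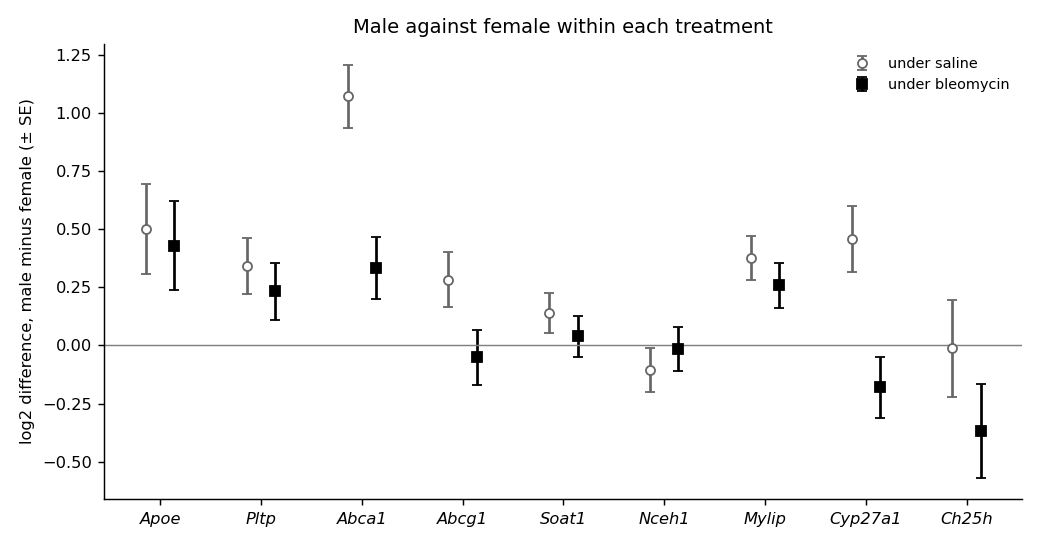
Log2 difference between males and females for the 9 tested genes under saline (open circles) and under bleomycin (filled squares), with bars of ± SE and positive values higher in males. Abca1 under saline, at 1.07, passed the test over all genes, and the other points did not.

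Ordered by FPKM, Abcg1 led under saline, with 543.8 ± 26.3 in males and 446 ± 48.1 in females (SD, n = 4), ranks 35 and 51 among 22046 protein-coding genes. Next came Nceh1 (149 and 160.5) and then Pltp (60.9 and 48.0), each apart from its neighbours. Apoe followed (41.4 in males and 29.2 in females). Mylip, Soat1 and Abca1 came next in males, where Mylip overlapped Soat1 and Soat1 overlapped Abca1, and Abca1 at 28.4 stood above Ch25h at 20.998 without overlap. In saline females Abca1, at 13.5, stood below Ch25h at 21.1. Cyp27a1 was the lowest of the 9 tested genes in every group, at 2.86 to 8.996 FPKM as group means. Under bleomycin Apoe led, with 2788 ± 806 in males and 2058 ± 517 in females (SD, n = 4), ranks 13 and 17. Abcg1 (273 and 280.4), Nceh1 (97.2 and 97.6), Pltp (75.95 and 64.2) and Soat1 (48.9 and 47.3) then followed in both sexes. In bleomycin females Soat1 overlapped Ch25h, Ch25h overlapped Abca1 and Abca1 overlapped Mylip.

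After centring each gene on its group mean, how the genes varied from library to library was compared with 8695 protein-coding genes by Pearson's r over the 16 libraries, which share their depth and cell mixture with every gene. The 2 genes most alike among those described were Abcg1 and Nceh1 (r = 0.83, Spearman rho 0.85), and Soat1 followed Ch25h (r = 0.72). Abca1 did not follow Abcg1 (r = -0.01). The genes most like Apoe were Htra3, Adssl1 and C1qa (r from 0.91 to 0.93), those most like Pltp were Map2k4, Csf1r and Rbm47 (r from 0.88 to 0.91), and those most like Abca1 were Ahnak2, Tmed8 and Slfn8 (r = 0.87 for each). Abcg1 was closest to Vsp35l, Ext2 and Hs1bp3 (r from 0.93 to 0.95), Nceh1 to Alox5 (r = 0.95) and Clic4 (r = 0.94), and Soat1 to Pdcd6ip, Dym and Kpnb1 (r from 0.93 to 0.95). Mylip was closest to Slc38a6, Msantd2 and Ewsr1 (r from 0.81 to 0.86), Cyp27a1 to Nr4a3, Dpp4 and Pml (r from 0.87 to 0.90), and Ch25h to Khsrp, Atf1 and Smap2 (r from 0.88 to 0.91).

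The other genes of the pathway were taken from 8 lists, 64 of whose 71 genes were tested, and the values are changes averaged over the sexes, to be read beside the 34.7% of all genes that rose and the 28.8% that fell. Of 10 nuclear receptors, partners and corepressors, 9 fell and 1 rose (median -0.40). The falls were led by the coregulators Nrip1 (-1.13, SE 0.11) and Ncoa1 (-1.04, SE 0.089), and Ppard rose by 0.21 (SE 0.056). The receptors themselves, also named after their values were seen, fell: Nr1h3 (LXR alpha) by -0.27 (SE 0.092, edgeR adjusted p = 0.0151), Nr1h2 (LXR beta) by -0.28 (SE 0.051, adjusted p = 0.00012) and Rxra by -0.40 (SE 0.066, adjusted p = 3.98e-05).

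Of 11 other LXR targets, 8 rose and 3 fell (median 0.78). The fatty acid desaturases Scd1 and Scd2 rose by 2.40 (SE 0.088) and 1.33 (SE 0.075) and the small GTPase Arl4c by 2.18 (SE 0.12). Lpcat3, Mertk and Srebf1 fell by 0.27, 0.23 and 0.15. LXR targets stood on both sides of 0, in this list as among the genes above, where Apoe and Abca1 rose while Abcg1 and Mylip fell. Of 8 uptake receptors 2 rose and 3 fell, with the scavenger receptor Msr1 up by 3.86 (SE 0.078), from 16.5 and 24.3 CPM in saline males and females to 297 and 286 CPM under bleomycin, and Lrp1, Olr1 and Lrp8 down by 0.53, 0.29 and 0.18. These counts of uptake receptors lie near the shares over all genes. Of 9 genes of lysosomal release and sterol transport 7 rose and none fell (median 0.74), led by Gramd1b (1.25, SE 0.097), Npc2 (1.10, SE 0.076) and Stard4 (0.88, SE 0.087). Without C49 and C50 this list had 6 rises and a median of 0.47, and without C33 as well 6 rises and a median of 0.46.

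Of 4 other ester and droplet genes 2 rose, among them the lipase Lipe (1.12, SE 0.099), and the droplet coat gene Plin2 stood at 1224 CPM under saline and 1185 CPM under bleomycin (change -0.05, SE 0.098, edgeR adjusted p = 0.682). Of 3 oxysterol genes 2 rose and 1 fell. Gpr183, the receptor for an oxysterol made from 25-hydroxycholesterol, rose by 4.08 (SE 0.25), from 0.80 to 13.4 CPM. Among 13 genes of SREBP control and cholesterol synthesis 12 rose and Scap fell by 0.22 (median 1.01), with Idi1 (1.62) and Fdft1 (1.35) among the highest. Of 6 other transporters and acceptors 1 rose and 3 fell: Abca9 rose by 3.31 (SE 0.11), from 1.80 to 17.96 CPM, and Abca2 and Abca7 fell by 0.81 and 0.22. Without C49 and C50, with limma voom or with library totals alone, 1 of these 6 rose and 5 fell. Library totals alone shift the median change of all genes from 0.01 to -0.20 and the share of calls that rise from 54.6% to 34.7%. Under that scaling the calls of Ppard, Lpl, Npc1, Insig2 and Gramd1c are lost, with Ppard at -0.001 and Lpl at -0.007, and falls are gained. The genes of lysosomal release come to 5 up and 2 down, the uptake receptors to 2 up and 5 down, and the ester and droplet genes to 2 up and 2 down, with Plin2 at -0.27 (edgeR adjusted p = 0.00462).

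**Figure D5:**
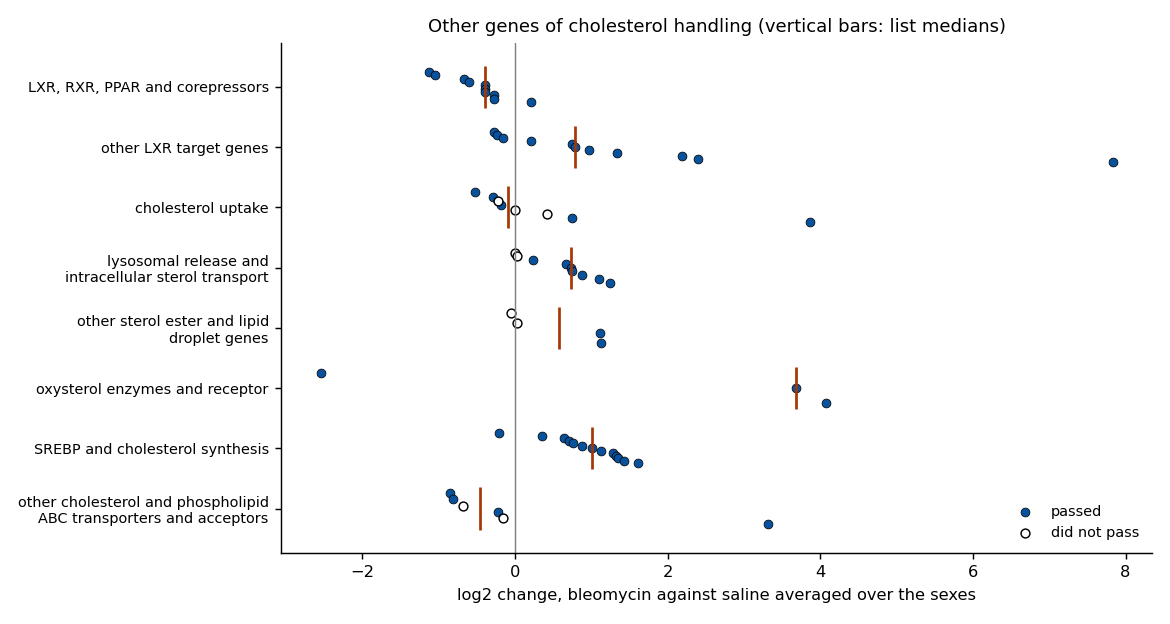
Log2 change averaged over the sexes for each tested gene of the 8 other lists, filled where it passed the test and open where it did not, with the list median as a vertical bar. The receptor and corepressor list lies mostly below 0, the synthesis and lysosomal lists mostly above it. The point at 7.83 is Cd5l, which had 0 counts in every saline female library, so that its position depends on the fit's prior count.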

How the data were processed

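Lavage-cell RNA from 16 libraries was analysed. The tools named by the authors, per the submitters' processing notes, are HISAT2 (2.0.5), featureCounts (1.5.0-p3), fastp (0.12.2) and DESeq2. The authors deposited raw counts per Ensembl gene, with GRCm38 coordinates. The FPKM values deposited by the authors equal counts divided by gene length and by a library constant whose definition is not given in the sources used here. The log2 changes and the p-values in the authors' deposited comparison tables cover only genes with an unadjusted p below 0.05.

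Counts were filtered with filterByExpr (minimum count 10), scaled by TMM and fitted in edgeR 4.0.16 (quasi-likelihood, R 4.3.3) with 1 coefficient per group. The code was tested on simulated data. edgeR gives no SE: it was taken as the absolute log2 change over the square root of F. FPKM ratios used a pseudocount of 0.1 and exact permutation tests. Alternatives included RLE factors, library totals, other filters, DESeq2 1.42.0, limma voom 3.58.1, pairwise fits and left-out libraries. All 10 genes are reported. From other lists the text names the 3 largest rises and 3 largest falls called with at least 10 CPM, and for each gene the 3 most alike genes. A few genes that this rule selects are not reported here. The receptors Nr1h3, Nr1h2 and Rxra, Plin2, Cd5l and calls lost under another scaling were named in addition, after their values were seen. The genes and lists were chosen with earlier results of these data known. Libraries held 16385784 to 24567609 counts.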

Additional observations from a re-analysis of the deposited data

Results flagged for a closer look

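Among 36 sets of 4 libraries (9 genes in 4 groups), 4 held a library standing far from the other libraries of its group, and chance alone gives such a flag in about 1 of 20 sets. In 3 of the 4 cases the library was the bleomycin male C65. Pltp was lowest there, at 162 CPM against 204 to 211 CPM in the other bleomycin males. Soat1 was highest there, at 511 CPM against 472 to 478 CPM. Cyp27a1 was also highest there, at 19.1 CPM against 16.9 to 17.2 CPM. Markers of red blood cells summed to 5612 CPM in C65, against 63.3 to 1122 CPM in the other bleomycin males. The summed B cell, T cell and dendritic cell markers were also highest of all libraries in C65. The part of this cell mixture in the flags was not tested. The fourth was Mylip in the saline female C77, at 69.98 CPM against 81.7 to 82.6 CPM in the other saline females. C77 also held the lowest Abca1 value of all libraries, 98.8 CPM, which was not far enough from the others to be listed by the same measure.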

How the results depend on the processing

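Across the alternatives no called change of the 9 genes reversed. Over all genes, comparisons and settings tried for them, 651 calls were kept, 15 were lost and 7 gained, and 659 results were called in neither fit. Pltp lost its call with library totals alone also averaged over the sexes (0.17, adjusted p = 0.055), and in males without C33, C66, C67, C70, C72 or C73 (adjusted p from 0.0525 to 0.0914). Ch25h lost its male call without C65, C67, C70, C71 or C72. Through these 2 genes, 6 to 8 of the 9 genes passed in males with 1 library left out. Without the low-count filter Apoc2 passed too, averaged over the sexes (10 genes called). That call rests on 10 counts over all libraries, too few for a test as said above.

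For male against female under saline, 1 of the 9 genes passed, but 2 with DESeq2, 5 with only these groups, 2 without C33, C49 and C50, and 1 to 2 with 1 library left out (2 without C68, when Mylip passed at an adjusted p of 0.0494). Over all genes 41 were called, but 119 with no filter, 191 with DESeq2, 765 with only these groups, 131 without C49 and C50, 277 without C33, C49 and C50, and 20 to 76 with 1 library left out. Under bleomycin 9 genes differed between the sexes, 14 with no filter, 199 without C49 and C50 and 670 without C33, C49 and C50. The interaction called 1 gene, 15 with no filter, 23 with DESeq2, 3 without C49 and C50, 77 without C33, C49 and C50, 0 with library totals alone, the stricter filter or limma voom, and 0 to 1 with 1 library left out. The cause was not tested.

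The Soat1 to Nceh1 ratio between the saline sexes ran from 0.21 to 0.30 with 1 library left out and passed without C74 (exact permutation, adjusted p = 0.0381). Leaving out C49 and C50, or C33 as well, leaves fewer samples, so that the comparisons that use them cannot reach the same smallest exact p and the p-values adjusted over the 8 tests rise for all. Then the Abca1 to Abcg1 ratio changed by 1.16 or 1.201 in males and 1.199 in females and differed by 0.80 between the saline sexes, and the Soat1 to Nceh1 ratio changed by 1.29 or 1.38 in males and 1.45 in females, at adjusted p of 0.0762 to 0.0889. A fit on only the groups compared gives no value for the average or the interaction. No paired analysis was possible because no replicate code stands in more than 1 group.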

Other observations

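Under saline the sexes also differed in a few other genes of cholesterol handling, each tested in edgeR over all genes. Arl4c, an LXR target that encodes a small GTPase, was higher in males by 1.02 on the log2 scale (SE 0.16, adjusted p = 0.00557), at 43.9 CPM against 21.6 CPM, and passed in all 25 other settings. The LXR target Scd1, a fatty acid desaturase, was higher in males by 0.63 (SE 0.12, adjusted p = 0.0294), at 41.8 against 26.9 CPM. This call was lost in 8 of the 25 other settings: with limma voom and without C71, C72, C73, C74, C75, C76 or C77 (adjusted p up to 0.124). The synthesis enzyme Sqle was lower in males, with a log2 difference of -0.59 (SE 0.12, adjusted p = 0.0486), a call lost in 10 of the 25 settings: with limma voom and without C50, C67, C70, C72, C73, C74, C75, C76 or C77 (adjusted p up to 0.215). The scavenger receptor Msr1 was also lower in males (-0.56, SE 0.10, adjusted p = 0.0252), a call lost in 8 of the 25: with limma voom and without C70, C71, C72, C73, C74, C75 or C76 (adjusted p up to 0.128). Of 13 genes of SREBP control and synthesis 2 were thus lower in males and none higher, with a median of -0.33 beside 0.01 over all genes. That count ran from 0 to 8 across the other settings. These libraries are the ones in which Abca1 was higher in males, so they are not independent of that result.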
